A study of Mus musculus with 30 samples.

Results

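Mast cell proteases are described here in testis cell preparations of young C57BL/6 mice, through the genes Cma1, Mcpt4, Cpa3 and Tpsb2. These 4 genes were taken by symbol from the 20889 gene symbols of the deposited expression table, and all 4 were found. They were chosen by their FPKM in these same columns, which an earlier look at the data had shown, so those levels are given as a description with no test. The table holds FPKM, fragment counts scaled by transcript length and library size, in 11 columns that stand for 16 RNA libraries, with 1 value per gene and column.

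The columns fall into 3 kinds by the way the cells were obtained. Cells enriched with magnetic beads against THY1, a surface protein used to collect undifferentiated spermatogonia, came from postnatal days 0, 7, 12 and 14 (P0, P7, P12 and P14). Cells enriched with beads against KIT, the receptor of differentiating spermatogonia, came from P7, P12 and P14. Cells sorted by flow cytometry carried GFP reporters of OCT4 (P0 and P7) or of ID4 (P7), and 1 further library is labelled P7 VASA THY1, although the protocol speaks of VASA-GFP cells at P0 alone. All are labelled spermatogonia, and Ddx4, a germ cell gene, stood between 65.0 FPKM (P0 THY1) and 248 FPKM (P14 THY1) over the 11 columns. Every bead column up to P12 stands for 2 libraries, and both P14 columns and the other 4 for 1 library each. With 1 value per column no spread between replicates can be given, no test between groups was possible, and every comparison is between these columns alone.

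Mast cells are tissue-resident immune cells that need KIT signalling to survive and that store proteases in their granules, bound to the proteoglycan serglycin. The stored enzymes are chymases, tryptases and carboxypeptidase A3, and their make-up differs between mast cells of connective tissue and those of mucosa. In the testis mast cells lie outside the seminiferous tubules, which hold the spermatogonia. KIT is thus carried by both differentiating spermatogonia and mast cells. In bulk RNA, fewer cells of a type and less RNA per cell cannot be told apart.

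Cma1 and Mcpt4 encode chymases, called mMCP-5 and mMCP-4, Tpsb2 encodes the tryptase mMCP-6, which cleaves after basic residues, and Cpa3 encodes carboxypeptidase A3, which removes C-terminal residues. Cma1 and Mcpt4 lie in the chymase locus on chromosome 14, Cpa3 on chromosome 3 and Tpsb2 on chromosome 17, so the members come from 3 separate places in the genome. In the RefSeq gene order (GRCm38.p6, used for neighbours because the submitters' notes name mm9) the 15 protein-coding genes from Cma1 to Gzmb run Cma1, Cma2, Mcpt1, Mcpt2, Mcpt9, Mcpt4, Mcpt8, Ctsg, Gzme, Gzmd, Gzmg, Gzmn, Gzmf, Gzmc, Gzmb.

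The sequences just upstream of the members are shown because genes on 3 chromosomes had the same order of columns, and Mcpt1 is added as the close neighbour of Mcpt4. RefSeq promoters (GRCm38.p6) were matched for 3 of the 4 members, Cma1, Mcpt4 and Cpa3. Each line gives the 250 bases before the annotated start, 5′ to 3′ on the gene's strand, with matches to GATAA, the core bound by GATA factors, and to TATAAA, the TATA box, in capitals on either strand.
Cma1, chr14:55944676-55944925, minus strand: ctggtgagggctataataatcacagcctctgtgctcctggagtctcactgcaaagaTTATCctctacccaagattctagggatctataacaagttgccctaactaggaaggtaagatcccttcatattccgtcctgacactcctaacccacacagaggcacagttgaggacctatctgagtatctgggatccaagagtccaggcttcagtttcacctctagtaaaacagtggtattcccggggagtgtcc
Mcpt4, chr14:56062311-56062560, minus strand: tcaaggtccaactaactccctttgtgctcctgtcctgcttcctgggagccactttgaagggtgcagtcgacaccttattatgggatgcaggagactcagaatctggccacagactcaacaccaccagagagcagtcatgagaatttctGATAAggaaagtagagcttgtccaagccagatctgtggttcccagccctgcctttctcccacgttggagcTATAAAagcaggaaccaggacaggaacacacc
Mcpt1, chr14:56017714-56017963, plus strand: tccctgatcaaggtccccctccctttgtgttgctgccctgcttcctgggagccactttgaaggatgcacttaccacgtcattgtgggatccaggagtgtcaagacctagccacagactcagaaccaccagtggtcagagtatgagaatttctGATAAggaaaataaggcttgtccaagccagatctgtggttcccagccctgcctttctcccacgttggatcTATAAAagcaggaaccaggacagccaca
Cpa3, chr3:20242182-20242431, minus strand: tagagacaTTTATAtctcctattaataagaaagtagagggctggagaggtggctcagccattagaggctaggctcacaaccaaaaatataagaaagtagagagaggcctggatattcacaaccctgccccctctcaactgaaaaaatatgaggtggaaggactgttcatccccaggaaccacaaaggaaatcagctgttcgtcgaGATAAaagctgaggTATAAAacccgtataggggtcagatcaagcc

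All 3 member windows held GATAA, beginning 194 bases before the start in Cma1, 102 in Mcpt4 and 45 in Cpa3. GATAA occurs on either strand in 22.6% of the 32851 RefSeq windows of this length. TATAAA began 32 bases before the start in Mcpt4, 28 in Mcpt1 and 31 in Cpa3, with a further match 242 bases before the start in Cpa3, and 12.4% of all windows hold it. The E-box CANNTG, the type of site bound by MITF among others, was found in Cma1 and Cpa3, and in 66.2% of all windows. These are matches of letters and do not show that a factor binds. The windows of Mcpt4 and Mcpt1 were identical at 213 of 260 aligned positions (81.9%), against 54.1% for Cma1 and Mcpt4 in the same alignment. Chymase genes are close copies of each other, and the sources do not say how fragments matching more than 1 gene were shared out, so the split between Mcpt4, Mcpt1 and Mcpt2 is uncertain.

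All 4 protease genes were highest in P0 THY1, next highest in P7 THY1 and then in P7 KIT, and stood under 2 FPKM in each of the other 8 columns. Cma1 stood at 99.3 FPKM in P0 THY1, 33.5 in P7 THY1, 0.0174 in P12 THY1 and 0.291 in P14 THY1, at 11.3 in P7 KIT, 0.969 in P12 KIT and 1.07 in P14 KIT, at 0.189 in P7 VASA THY1 and at 0 in P0 OCT4-GFP, P7 OCT4-GFP and P7 ID4-GFP. Mcpt4 stood at 59.1 FPKM in P0 THY1, 34.9 in P7 THY1, 0.0193 in P12 THY1 and 0.141 in P14 THY1, at 15.2 in P7 KIT, 1.80 in P12 KIT and 1.89 in P14 KIT, at 0.0701 in P7 VASA THY1 and 0.144 in P7 OCT4-GFP and at 0 in P0 OCT4-GFP and P7 ID4-GFP. The chymase genes thus shared their 5 highest columns, P0 THY1 and P7 THY1 followed by the KIT columns of P7, P14 and P12.

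The carboxypeptidase and the tryptase followed the same order. Cpa3 stood at 79.6 FPKM in P0 THY1, 19.1 in P7 THY1, 0 in P12 THY1 and 0.114 in P14 THY1, at 6.08 in P7 KIT, 0.590 in P12 KIT and 1.01 in P14 KIT, at 0.0441 in P7 VASA THY1 and 0.0452 in P7 OCT4-GFP and at 0 in P0 OCT4-GFP and P7 ID4-GFP. Tpsb2 stood at 98.7 FPKM in P0 THY1, 26.0 in P7 THY1, 0 in P12 THY1 and 0.0539 in P14 THY1, at 9.67 in P7 KIT, 0.556 in P12 KIT and 0.933 in P14 KIT, at 0.0623 in P7 VASA THY1 and at 0 in P0 OCT4-GFP, P7 OCT4-GFP and P7 ID4-GFP. The bead-enriched columns of P0 and P7 were separated from all others for every member, with a lowest value of 6.08 FPKM among the former (Cpa3 in P7 KIT) and a highest of 1.89 FPKM among the latter (Mcpt4 in P14 KIT).

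**Figure D1:**
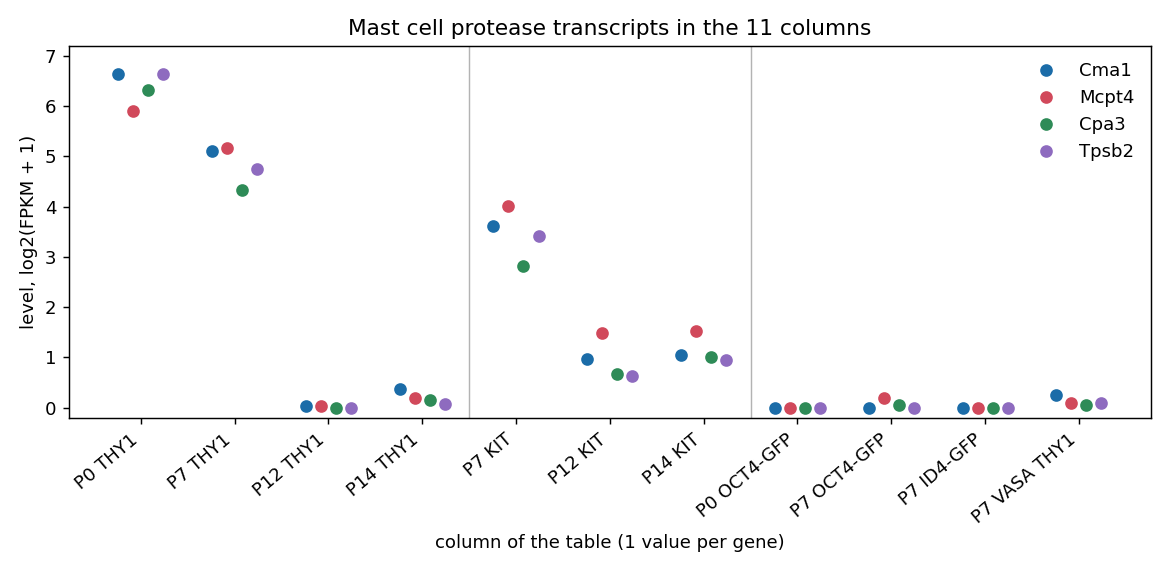
Level of Cma1, Mcpt4, Cpa3 and Tpsb2 as log2(FPKM + 1) on the y axis in each of the 11 columns on the x axis, with 1 point per gene and column, vertical lines between THY1, KIT and the other columns, and no error bars because each column holds 1 value. The points of P0 THY1 (59.1 to 99.3 FPKM), P7 THY1 (19.1 to 34.9 FPKM) and P7 KIT (6.08 to 15.2 FPKM) lie above those of the other 8 columns.

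Over the 11 columns the 6 pairs of members had Pearson's r of log2(FPKM + 1) between 0.977 and 0.998 and Spearman's rho between 0.910 and 0.984. Without P0 THY1 and P7 THY1, over 9 columns, r was between 0.982 and 0.996 and rho between 0.834 and 0.970. The columns share a processing run and, in part, low depth near 0, so these are descriptions. Over all genes 279 (1.34% of 20889) had the order P0 THY1 over P7 THY1 over P7 KIT over every other column, an order read off the members. Among them 37 also had KIT over THY1 at both P12 and P14. Of the 37, 6 stood at 5 FPKM or more in P0 THY1 with a P7 KIT level at least 2-fold under that of P7 THY1. These were the 4 members, Mcpt1 and Tpsab1. The added conditions were also read off the members, which pass by construction, so nothing is read from how few genes remain.

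The values near 0 rest on very few fragments. In the columns of 1 library and in P12 THY1, the low FPKM values of a gene fall in whole-number steps once the columns' relative depth is set. All 16 non-zero member values there came out within 0.1 of a whole number of fragments. The step of each gene was chosen so that its values up to 20 fragments did so, and only the P14 KIT values lay outside that choice. That scale could be off by a whole-number factor, in all columns or in a single one. On it, P12 THY1 held 1 fragment of Cma1, 1 of Mcpt4 and none of Cpa3 or Tpsb2. P7 VASA THY1 held 6 of Cma1 and 2 each of Mcpt4, Cpa3 and Tpsb2, and P7 OCT4-GFP held 6 of Mcpt4 and 3 of Cpa3. A count of 0, taken to allow up to 3 fragments, allows 0.112 FPKM of Cma1 in P0 OCT4-GFP and 0.0570 FPKM in P7 ID4-GFP. Intervals and limits of this kind cover counting error only.

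The comparison of KIT with THY1 cells asks how cells selected for the receptor differ from those selected for THY1 at the same age. At P7 all 4 proteases stood lower in KIT cells, by 2.29-fold (Mcpt4), 2.69-fold (Tpsb2), 2.96-fold (Cma1) and 3.14-fold (Cpa3) in FPKM. On the log2(FPKM + 1) scale, which understates the change of low values, the differences ran from -1.15 (Mcpt4) to -1.50 (Cpa3), with a median of -1.41 against 0.02 over the 14200 genes that reached 1 FPKM in 2 or more columns. Genes were counted as different at 4-fold if the higher column reached 5 FPKM, and 0 of 4 members were counted, against 0.211% of all genes counted as lower and 0.148% as higher. At 2-fold with the same minimum 4 of 4 were lower, against 1.28% of all genes. The choice of members used these columns, so nothing is read from that share. With P7 VASA THY1 in place of P7 THY1 the direction turned, and all 4 were higher in P7 KIT at 4-fold (0.981% of all genes), by 3.37 (Cma1), 3.92 (Mcpt4), 2.76 (Cpa3) and 3.33 (Tpsb2) on the log2 scale. The lower level in KIT cells at P7 therefore holds against the THY1 bead column and not against that library.

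At P12 and P14 the order of the bead columns was the opposite, at much lower levels. At P12 the log2(FPKM + 1) differences, KIT minus THY1, were 0.95 for Cma1, 1.46 for Mcpt4, 0.67 for Cpa3 and 0.64 for Tpsb2, with a median of 0.81. With a pseudocount of 0.1 in place of 1 they were 3.19, 3.99, 2.79 and 2.71. The THY1 side of this comparison holds at most 1 fragment of each gene, so no ratio is given. At P14 the differences were 0.68 for Cma1, 1.34 for Mcpt4, 0.85 for Cpa3 and 0.88 for Tpsb2, with a median of 0.86, and with the smaller pseudocount 1.58, 3.04, 2.38 and 2.75. No member could be counted at 4-fold at P12 or P14. The highest value there was 1.89 FPKM (Mcpt4 in P14 KIT), under the minimum of 5 FPKM. On the log2(FPKM + 1) scale such a value cannot differ by 4-fold even from 0. Nothing is therefore read from the members' count at these ages. At P12 0.139% of all genes were counted as higher and 0.101% as lower in KIT cells, and at P14 0.201% and 3.16%.

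At P14, with 1 library on each side, the fragment counts allow an interval for each ratio. Cma1 had 34 fragments in KIT and 16 in THY1 cells, an FPKM ratio of 3.68 with an exact 95% interval of 1.98 to 7.14. Mcpt4 had 54 and 7 fragments, a ratio of 13.4 (6.06 to 34.8). Cpa3 had 46 and 9, a ratio of 8.85 (4.28 to 20.6), and Tpsb2 had 30 and 3, a ratio of 17.3 (5.39 to 88.7). The intervals (Clopper-Pearson, on the share of fragments, scaled by the relative depth) cover counting error between these 2 libraries only. They describe values by which the members were chosen and are no test of the conditions.

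**Figure D2:**
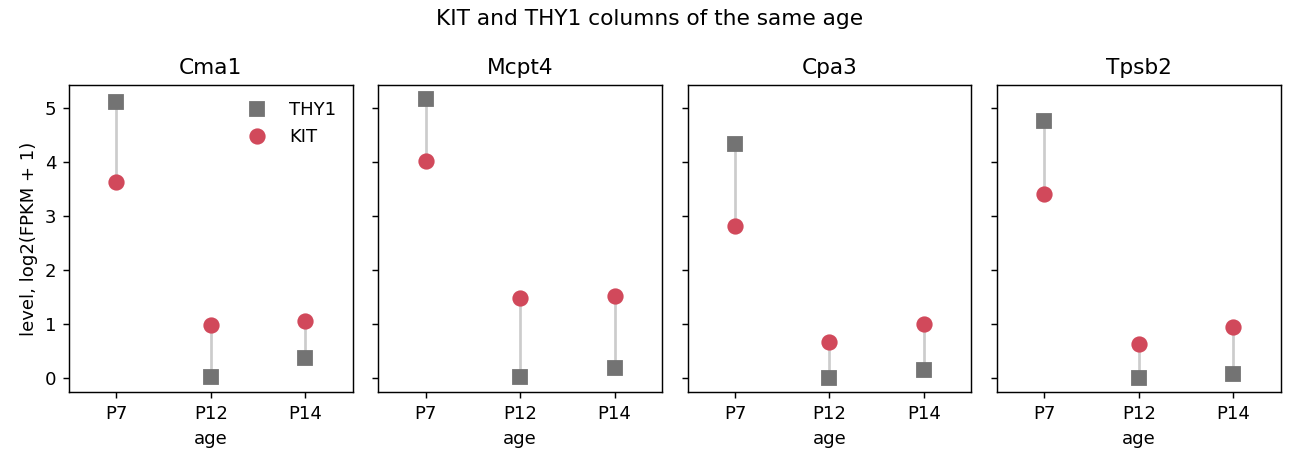
Level of each member as log2(FPKM + 1) on the y axis at P7, P12 and P14 on the x axis, with squares for the THY1 column and circles for the KIT column of each age, joined by a line, and 1 value per column. THY1 lies above KIT at P7 in all 4 panels (Cma1 33.5 against 11.3 FPKM), and KIT above THY1 at P12 (0.969 against 0.0174 FPKM) and P14 (1.07 against 0.291 FPKM).

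Kit, the receptor used for the selection, stood higher in the KIT column at all 3 ages, at 78.9, 72.5 and 103 FPKM against 21.3, 15.4 and 24.1 FPKM in the THY1 column of P7, P12 and P14. Its level did not follow that of the proteases, with r = -0.10 and rho = 0.20 to their mean pattern over the 11 columns. Kitl, which encodes the ligand of KIT, stood at 28.0, 42.7, 83.9 and 10.3 FPKM in THY1 cells of P0, P7, P12 and P14, and was highest in P12 THY1, where the proteases were at 1 fragment or none. Thy1 stood at 18.3 FPKM in P0 THY1 and at 1.64 FPKM or less in the later THY1 columns.

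From P0 to P7 the proteases of THY1 cells were lower and by P12 they were close to 0. The comparisons across age ask how the THY1 and KIT populations changed over the first weeks. From P0 to P7 the log2(FPKM + 1) differences were -1.54 for Cma1, -0.74 for Mcpt4, -2.01 for Cpa3 and -1.89 for Tpsb2. Cpa3 alone was counted at 4-fold, where 3.05% of all genes were counted as lower. From P7 to P12 the differences ran from -4.33 (Cpa3) to -5.14 (Mcpt4), and 4 of 4 members were counted as lower, against 0.191% of all genes. In P14 THY1 the members stood 0.08 (Tpsb2) to 0.34 (Cma1) above P12 THY1 on that scale, with 3 to 16 fragments each. With P7 VASA THY1 in place of P7 THY1, 4 of 4 were counted as lower from P0 to P7 (5.9% of all genes) and 0 of 4 from P7 to P12 (0.11%), so the age at which the level drops depends on which P7 library is used.

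In KIT cells the drop from P7 to P12 was smaller. Cma1 fell by 2.65, Mcpt4 by 2.54, Cpa3 by 2.15 and Tpsb2 by 2.78 on the log2(FPKM + 1) scale, and 4 of 4 were counted as lower, against 0.134% of all genes. From P12 to P14 KIT cells differed by 0.05 (Mcpt4) to 0.34 (Cpa3). The members used the same columns to be chosen, so these shares are given as background only.

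Cells sorted by GFP held almost none of these transcripts. At P0 the 4 members were listed at 0 in OCT4-GFP cells, against 59.1 to 99.3 FPKM in THY1 cells, and 4 of 4 were counted as lower, beside 5.61% of all genes. At P7, 4 of 4 were counted as lower than in P7 THY1 in each of OCT4-GFP (2.02% of all genes), ID4-GFP (3.11%) and VASA THY1 cells (1.53%). These comparisons share the P7 THY1 column. Ddx4 stood at 241 FPKM in P0 OCT4-GFP against 65.0 FPKM for P0 THY1, and 9 of 10 listed germ cell genes were at least 2-fold higher in the former, beside 7.68% of all genes.

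Other mast cell protease genes had their highest levels in the same columns. Tpsab1, which encodes the tryptase mMCP-7 and is annotated by RefSeq as a transcribed pseudogene in C57BL/6J, stood at 10.2 FPKM in P0 THY1, 9.23 in P7 THY1 and 2.12 in P7 KIT, and under 0.5 FPKM in every other column. Mcpt1 and Mcpt2 encode chymases typical of mucosal mast cells. Mcpt1 stood at 7.00, 4.73 and 1.00 FPKM in P0 THY1, P7 THY1 and P7 KIT. Mcpt2 stood at 83.9, 20.02 and 2.30 FPKM in the same columns, at 0.0358 FPKM in P14 KIT, and at 0 in the other 7 columns. Mcpt2 thus lay within the members' range in P0 THY1 and, unlike them, was listed at 0 in P12 KIT.

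Of 13 other genes of the chymase locus and its granzyme end, 0 were counted at 4-fold as higher and 4 as lower in KIT than THY1 cells at P7. The 4 were Mcpt2 and the cytotoxic granule genes Gzmb (8.03 FPKM in P7 THY1), Gzmc (27.6) and Gzmf (5.30), beside the same 0.211% of all genes. Gzmc was at 0.296 FPKM in P0 THY1 and at 10.9 FPKM in P12 THY1, the columns where the members were highest and at 1 fragment or none, so its order of columns differed from theirs. Mcpt1 shared the members' order of P0 THY1, P7 THY1 and P7 KIT. Unlike them, it stood higher in P12 KIT (0.254 FPKM) than in P14 KIT (0.0667 FPKM). Mcpt8 and Prss34, which encode basophil proteases, stood at 2.17 and 5.19 FPKM in P0 THY1 and under 1 FPKM elsewhere. Of 7 other tryptase locus genes, 0 were counted at 4-fold in KIT against THY1 cells at P7, P12 or P14, beside the shares of all genes given above. Among them only Tpsab1 at P7 and Prss41 at P14 reached the minimum of 5 FPKM, so little is read from that count. Prss41 alone was highest in P14 KIT, at 6.15 FPKM.

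The shares of the protease transcripts, as listed, differed between the columns. Mcpt2 made up 19.2% of the summed FPKM of 7 granule proteases (the members, Tpsab1, Mcpt1 and Mcpt2) in P0 THY1, 13.6% in P7 THY1, 4.82% in P7 KIT, 0% in P12 KIT and 0.703% in P14 KIT. Mcpt4 made up 13.5%, 23.7%, 31.9%, 38.6% and 37.0% in the same columns. The level of Mcpt4 was 0.596 times that of Cma1 in P0 THY1, 1.04 times in P7 THY1, 1.35 times in P7 KIT, 1.86 times in the P12 and 1.76 times in the P14 KIT column. The share of Cma1 stayed between 20.8% and 23.7% in these 5 columns. FPKM is set per transcript length, but the split between Mcpt2, Mcpt1 and Mcpt4 is uncertain as said, and no spread is known for these shares.

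**Figure D3:**
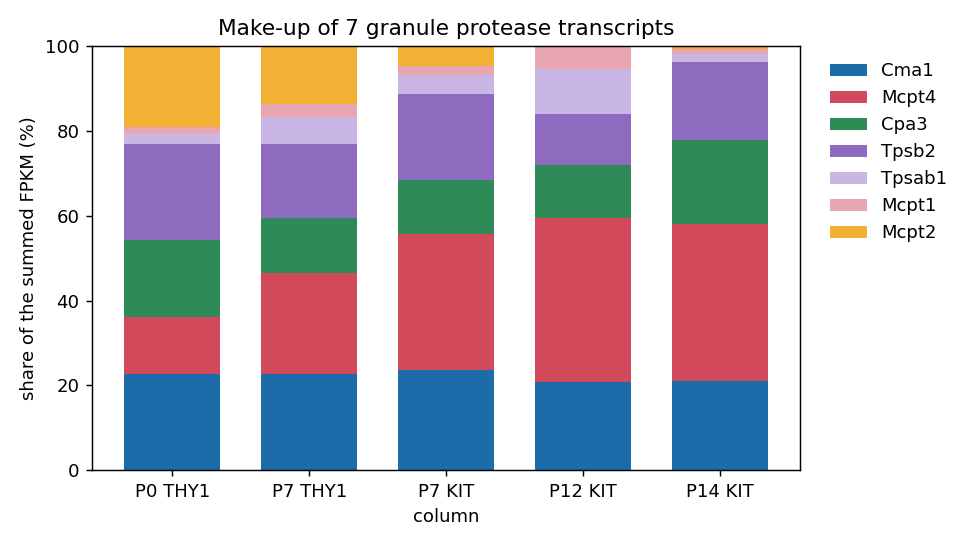
Share in percent (y axis, from 0) of each of 7 granule proteases in their summed FPKM, as stacked bars for the 5 columns in which that sum was above 1 FPKM (x axis). Mcpt2 narrows from 19.2% in P0 THY1 to 4.82% in P7 KIT, while Mcpt4 widens from 13.5% to 31.9%.

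Genes that work beside the proteases in mast cells were mostly low or widespread. Fcer1a, which encodes the chain of the IgE receptor that binds IgE, stood at 0.183 FPKM in P0 THY1 and at 0 in the other 10 columns, and Ms4a2, its beta chain, reached 0.681 FPKM, also in P0 THY1. The receptor by which mast cells sense IL-33, Il1rl1, stood at 9.55, 3.17 and 1.38 FPKM in P0 THY1, P7 THY1 and P7 KIT and under 0.4 FPKM elsewhere. The order of P0 THY1, P7 THY1 and P7 KIT was that of the members. Unlike in the members, P14 THY1 (0.334 FPKM) stood above P14 KIT (0.102 FPKM). The connective tissue mast cell receptor genes Mrgprb1 and Mrgprb2 were at 0.836 and 1.21 FPKM in P0 THY1 and at 1.19 and 0.126 FPKM in P7 THY1. The label of the group thus rests mainly on the proteases, with Fcer1a and Ms4a2 at 0.681 FPKM or less in every column.

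Hdc, the enzyme gene for histamine, stood at 12.8 and 10.98 FPKM in the THY1 columns of P0 and P7, but also between 3.94 and 7.17 FPKM in the other 9 columns, among them those with no protease transcripts. Tph1, of serotonin synthesis, stood at 17.9, 8.07 and 1.71 FPKM in P0 THY1, P7 THY1 and P7 KIT. Gata2, a transcription factor gene needed for mast cells, stood at 24.2 FPKM in P0 THY1 and at 5.05 FPKM or less in every other column. Of the 20 genes for mast cell receptors, mediators and regulators, 0 were counted at 4-fold in KIT against THY1 cells at P7, P12 or P14 (median -0.39, -0.07 and -0.04 on the log2 scale). Of all genes, 0.211% were counted as lower and 0.148% as higher at P7, 0.101% and 0.139% at P12, and 3.16% and 0.201% at P14. Of the 20, between 10 and 17 were under 1 FPKM in each of these columns. Hdc alone reached the minimum of 5 FPKM at P12 and P14, so little is read from a count of 0. In THY1 cells from P0 to P7, 2 of the 20 were lower at 4-fold, beside 3.05% of all genes, and the median was -0.996. These were Gata2 and Fcer1g, a signalling chain shared with macrophages.

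Of the storage and activation genes, Srgn, which encodes the granule proteoglycan serglycin, stood at 66.6, 40.6 and 10.02 FPKM in P0 THY1, P7 THY1 and P7 KIT. It was also at 12.1 FPKM in P12 THY1, where the proteases were at 1 fragment or none. Ctsc, whose product activates chymases, stood at 29.98 FPKM in P0 THY1 against 3.70 FPKM in P7 THY1. Ndst2, for heparin synthesis, stood between 7.40 and 18.2 FPKM in all 11 columns. Of the 7 storage and activation genes, 0 were counted at 4-fold in KIT against THY1 cells at P7, and 1 was counted as lower at both P12 and P14. Of all genes, 0.211% were counted as lower at P7, 0.101% at P12 and 3.16% at P14. This was the protease gene Ctss, at 1.14 against 9.96 FPKM at P12 and 0.287 against 7.27 FPKM at P14. By this count no storage or activation gene was higher in KIT cells at P12 or P14, and the members were too low there to be counted. Without the size rule, 7 of the 7 storage and activation genes stood lower in KIT cells at P12 and 6 at P14. All 4 members stood higher in KIT cells at both ages.

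Among 12090 genes that reached 1 FPKM in 2 or more columns and 5 FPKM in 1, the 10 most like the members by Pearson's r with their mean standardised log2(FPKM + 1) over the 11 columns were Tpsab1, Mcpt1, Calca, Il1rl1, Ngp, Mcpt2, BC100530, Stfa2, S100a9 and Cyp1a1, with r between 0.956 and 0.979. Of these, 4 are genes of the mast cell lists (Tpsab1, Mcpt1, Il1rl1 and Mcpt2), and Ngp and S100a9 are neutrophil genes. Their Spearman's rho ran from 0.400 (Ngp) to 0.929 (Tpsab1), with 0.846 for Mcpt1, 0.834 for Il1rl1, 0.865 for Mcpt2, 0.788 for Stfa2, 0.738 for Calca and 0.497 for S100a9. Among other listed genes the neutrophil genes Camp (0.685) and Ltf (0.610) were at or above the mast cell list genes Hdc (0.610), Gata2 (0.474) and Tph1 (0.292), so rho did not separate these lists. The list depends on which columns are used. Without P0 THY1 and P7 THY1, 0 of the 10 were again among the nearest 10. In the 7 THY1-bead and KIT columns alone, which keep the highest columns, 1 of the 10 (Tpsab1) was.

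Markers of other white blood cells were, like the proteases, higher in P0 THY1 than in P7 THY1 and higher there than in P7 KIT. The summed level of the 8 neutrophil genes was 658 FPKM in P0 THY1, 216 in P7 THY1 and 45.9 in P7 KIT, and 7.16 or less in the other 8 columns. The calcium-binding protein genes S100a8 (314, 93.1 and 16.4 FPKM) and S100a9 (295, 96.6 and 20.9 FPKM) made up most of it. The 8 genes of T and NK cells summed to 30.3, 14.2 and 3.06 FPKM and the 8 pan-leukocyte genes to 332, 79.6 and 16.4 FPKM in the same columns, beside 337, 114 and 42.3 FPKM for the 4 proteases. In the OCT4-GFP columns of P0 and P7 the pan-leukocyte sum was 169 and 89.1 FPKM, against protease sums of 0 and 0.189 FPKM. The T and NK cell sum was 5.08 and 3.38 FPKM there, above that of P7 KIT. In the OCT4-GFP columns and in P7 KIT 7 of the 8 genes were under 1 FPKM. Most of each sum was Lck, at 3.24 and 1.92 FPKM against 2.15 FPKM in P7 KIT. The part of these cells in the lower protease level of KIT cells at P7 was not tested.

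At P12 the proteases summed to 3.91 FPKM in KIT cells against 0.0368 FPKM in THY1 cells, whereas the neutrophil (4.49 against 7.16 FPKM), T and NK cell (3.27 against 4.17 FPKM), pan-leukocyte (6.97 against 38.7 FPKM) and macrophage sums (15.7 against 86.5 FPKM) were lower in KIT cells. At P14 the proteases summed to 4.91 FPKM in KIT and 0.601 in THY1 cells. The neutrophil sum was also higher in KIT cells there, at 3.13 against 2.48 FPKM, of which Prtn3 held 2.69 and 1.78 FPKM. The T and NK cell sum was 3.62 against 3.70 FPKM, of which Cd3e held 2.77 and 0.670 FPKM. Of these 8 genes 6 were lower in KIT cells and 2 higher. The pan-leukocyte sum there was 2.70 against 25.6 FPKM and the macrophage sum 4.15 against 61.8 FPKM. Leydig cell genes went the same way as the proteases at these ages, with sums of 228 against 92.8 FPKM at P12 and 591 against 158 FPKM at P14, and the opposite way at P7, with 1136 against 127 FPKM. The part of Leydig cells in the protease result was not tested.

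Macrophage transcripts in the OCT4-GFP columns and endothelial transcripts in P12 THY1 stood high where the proteases were at or near 0. The 12 macrophage genes summed to 366 FPKM in P0 OCT4-GFP against 401 FPKM in P0 THY1, with Csf1r, the receptor for the macrophage growth factor, at 19.6 and 25.8 FPKM, while the proteases were at 0 and 337 FPKM. The macrophage sum was 251 FPKM in P7 OCT4-GFP but 13.4 FPKM in P7 ID4-GFP and 7.13 FPKM in P7 VASA THY1. The 8 endothelial genes summed to 220 FPKM in P7 KIT and 167 FPKM in P7 THY1, and to 97.6 FPKM in P12 THY1, against 25.0 to 45.3 FPKM in the GFP and VASA THY1 columns. Fibroblast and stroma genes summed to 7064 FPKM in P0 THY1 and to 346 and 375 FPKM in P7 THY1 and P7 KIT, so they were highest in the column with the most protease transcripts. No gene of the macrophage, endothelial, fibroblast or pan-leukocyte lists was at 0 in P0 THY1, P7 THY1 or P12 THY1. Alas2, a red cell gene, stood at 83.7 FPKM in P7 THY1 and at 6.72 FPKM or less elsewhere, so P7 THY1 also stood apart in blood transcripts.

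**Figure D4:**
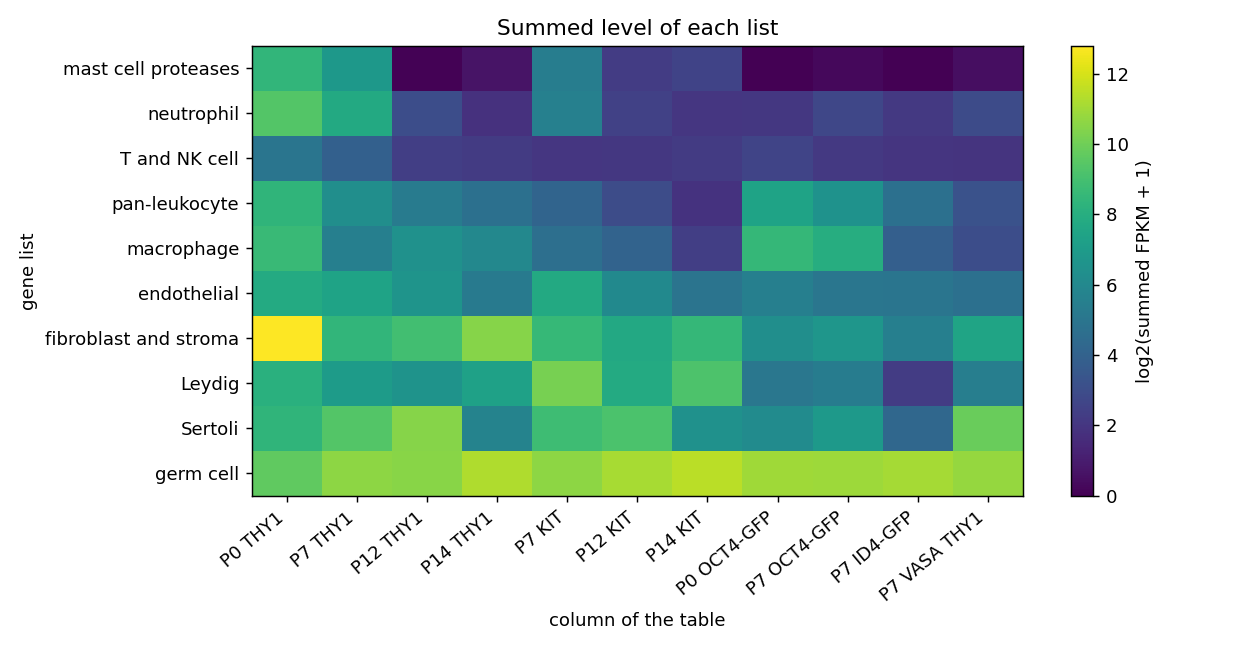
Summed level of each of 10 gene lists (rows) in the 11 columns, coloured by log2(summed FPKM + 1). The protease row is bright in P0 THY1 (337 FPKM), P7 THY1 (114 FPKM) and P7 KIT (42.3 FPKM) as is the neutrophil row (658, 216 and 45.9 FPKM), whereas the macrophage row is also bright in P0 OCT4-GFP (366 FPKM).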

How the data were processed

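Total RNA of postnatal mouse testis cells had its ribosomal RNA removed before strand-keeping library preparation, per the labels' protocols. The submitters' processing notes list CASAVA, TopHat2 2.0.9, Cufflinks 2.1.1 and, as build, mm9; the annotation, the counting of shared fragments and the way 2 libraries gave 1 column are not given in the sources used here. The authors deposited FPKM for 20889 symbols in 11 columns, and the 75th percentile lay between 17.2 and 18.2 FPKM. The 8 bisulfite and 6 chromatin samples of the 30 were not analysed here.

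From the deposited FPKM, log2(FPKM + 1) and differences between columns were computed for 12 comparisons (Python 3.11.15, numpy 2.4.6, pandas 2.3.3, Biopython 1.88, matplotlib 3.10.9) and tested on simulated data. A gene was counted at 4-fold, or at 2-fold, if its higher column reached 5 FPKM. Total depth is not in FPKM. Relative depth was read from values under 0.05 FPKM, a bound chosen after seeing the data: 1 fragment was worth between 0.957 (P12 THY1) and 3.72 times (P7 THY1) its worth in P14 THY1. The P7 THY1 step, seen in 14.8% of 237 genes, may be off by a whole-number factor and is used for no value. The steps that are used were seen in 16.3% (P12 THY1) to 27.3% (P0 OCT4-GFP) of genes, with 24.9% for P14 KIT. They could be off by such a factor as well. Of 163 list entries 158 matched by symbol and 3 by synonym.

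Members and lists were chosen with earlier results of these data known. The rule for named genes gives the members and allows any gene of the protease, storage, mast cell and sort marker lists, up to 3 markers of other lists and the 10 genes most like the members. Some listed protease genes are not reported here. Prtn3, Camp, Ltf and Lck, which the rule does not give, the column order, the protease shares and the fragment estimates were chosen after the values were seen. Alternatives were a pseudocount of 0.1, no FPKM minimum, columns rescaled to a common 75th percentile and P7 VASA THY1 in place of P7 THY1.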

Additional observations from a re-analysis of the deposited data

Results flagged for a closer look

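The KIT minus THY1 difference of each member was below 0 at P7 and above 0 at P12 and P14, with 1 value per column and no test of the change. On the log2(FPKM + 1) scale the difference at P12 exceeded that at P7 by 2.44 for Cma1, 2.60 for Mcpt4, 2.17 for Cpa3 and 1.98 for Tpsb2. The difference at P14 exceeded that at P7 by 2.17 for Cma1, 2.49 for Mcpt4, 2.36 for Cpa3 and 2.21 for Tpsb2. With a pseudocount of 0.1 these gaps were larger, from 4.13 (Tpsb2) to 5.18 (Mcpt4) at P12 and from 3.14 (Cma1) to 4.23 (Mcpt4) at P14. With P7 VASA THY1 in place of P7 THY1 the P7 differences were above 0 as well.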

How the results depend on the processing

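No paired analysis was possible because the columns carry no replicate numbers and hold 1 value per group, and for the same reason no replicate could be left out. Over the 12 comparisons the number of members counted stayed within 1.5 times with a pseudocount of 0.1, with no FPKM minimum and with columns rescaled to a common 75th percentile (36 of 36). For KIT against THY1 at P12 and P14 the members were too low to be counted under any of these settings. With P7 VASA THY1 in place of P7 THY1 it became 4 in place of 0 for KIT against THY1 at P7, 4 in place of 1 for P7 against P0 and 0 in place of 4 for P12 against P7 in THY1 cells. Over all genes that replacement gave 205 higher in place of 31 at P7, 151 higher and 1233 lower in place of 69 and 638 from P0 to P7, and 378 higher and 23 lower in place of 97 and 40 from P7 to P12. A pseudocount of 0.1 gave 49 genes higher in place of 31 in KIT cells at P7, 52 higher and 40 lower in place of 29 and 21 at P12, 75 higher in place of 42 at P14, and 156 higher in place of 97 from P7 to P12 in THY1 cells. Against P7 THY1 it gave 60 higher in place of 34 for OCT4-GFP, 35 in place of 17 for ID4-GFP and 94 in place of 43 for VASA THY1 cells. Of the 10 genes most like the members, 6 were again among the nearest 10 with a pseudocount of 0.1, 1 in the 7 THY1-bead and KIT columns, and 0 without P0 THY1 and P7 THY1, a choice made after seeing the data. The cause of these changes was not tested. Low depth limits the values under 1 FPKM most.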
